A study of Mus musculus with 6 samples.

Results

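Vegfa, Car9, Adm, Ndrg1, Bnip3, Egln3, Pdk1, P4ha1, Ddit4 and Ankrd37 are genes known to be induced by low oxygen that do not encode enzymes of glycolysis. They were chosen by name as established targets of the hypoxia-inducible factors, and each name was matched to its mouse Ensembl gene on GRCm38. The 10 genes were taken from 54532 gene IDs measured by RNA sequencing in 6 mammary tumors, and all 10 passed the filter for testing, a mean of at least 0.5 FPKM over the 6 tumors, which 15069 genes passed. FPKM is the number of fragments per kilobase of transcript, scaled to the mapped reads of the library, so it can be compared between genes of different length.

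All 6 tumors came from NeuT/ATTAC mice, a cross on the FVB background of MMTV-NeuT mice (FVB-Tg(MMTV-Erbb2)NK1Mul/J), in which the mouse mammary tumor virus promoter drives Erbb2 in mammary epithelium, with FAT-ATTAC mice, in which fat cells carry a drug-inducible caspase. All 6 had received AP20187, the dimerizer that activates this caspase, at 0.4 mg/kg i.p. from 6 weeks of age to induce mammary fibrosis. The labels give these injections as biweekly and the methods as triweekly. From 8 weeks of age, the IgG group (n = 3) received 100 μg of an isotype-matched IgG i.p. 2 times a week and the anti-PD-1 group (n = 3) the same dose of an antibody against the immune checkpoint receptor PD-1. No tumor without AP20187 or without antibody was compared, and the sources used here describe antibody treatment over several months without giving the age of these mice at collection. The labels give 3 replicates per group, and p-values measure only the spread between these 6 libraries. The study also describes RNA pooled within each group, so whether each library is a separate animal is not settled by the sources used here.

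When oxygen is plentiful, prolyl hydroxylases of the EGLN family mark the alpha subunits HIF1A and EPAS1 for destruction through the ubiquitin ligase that contains VHL. When oxygen falls, the alpha subunits persist, pair with ARNT and bind short DNA elements near genes that bring in blood vessels, lower oxygen use, export acid and supply glycolysis. Gapdh and most other glycolytic enzymes are induced through the same elements, which is why the question asked of these genes was whether they followed Gapdh and the other glycolysis genes from tumor to tumor. In tumors this program is best known from poorly perfused regions, and several of the genes also respond to other signals.

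The core letters of the HIF element, ACGTG or GCGTG on either strand, were searched in the RefSeq promoters of GRCm38.p6, each running from 250 bases before to 50 bases after an annotated start site. A promoter was listed for 9 of the 10 genes, not for Ndrg1, and all 9 held at least 1 match. Among all 32851 promoters of the same length, 43.8% held a match, and 46.7% of 27025 genes had such a promoter. The genes were picked as known HIF targets, their promoters had a median GC content of 62.0% against 52.7% for all promoters, and ACGTG overlaps the E-box CACGTG while GCGTG overlaps the core bound by the aryl hydrocarbon receptor, so the matches are a description and not binding sites. For each gene the 29 bases around the densest or, among equals, the nearest match are shown, 5′ to 3′ on the strand of the gene, because these letters are what the genes are expected to share; capitals mark every match in the window.
Vegfa: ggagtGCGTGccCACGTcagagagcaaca
Car9: ctatttccgatgCACGTacagcccgtcca
Adm: ggcaaatctgacCACGCccaccgtccgcc
Bnip3: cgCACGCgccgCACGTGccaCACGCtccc
Egln3: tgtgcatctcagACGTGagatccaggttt
Pdk1: ccgcctacggggGCGTGgttccagcgagg
P4ha1: tgtgacagagcgCACGTagcgagggctgc
Ddit4: gacctggaggggGCGTGgcctcgccggga
Ankrd37: ttcactgcgCACGCGTGctgcggccgcct
The windows lie at chr17:46025358-46025386 (minus strand, Vegfa), chr4:43506996-43507024 (plus strand, Car9), chr7:110627591-110627619 (plus strand, Adm), chr7:138909597-138909625 (minus strand, Bnip3), chr12:54204087-54204115 (minus strand, Egln3), chr2:71873210-71873238 (plus strand, Pdk1), chr10:59323268-59323296 (plus strand, P4ha1), chr10:59951869-59951897 (minus strand, Ddit4) and chr8:45999986-46000014 (minus strand, Ankrd37). The Bnip3 window was the densest, with 4 overlapping or neighboring matches, among them an E-box, and its match begins 107 bases before the start site. Of the matches shown, those of Pdk1, P4ha1 and Car9 lie closest to a start site, beginning 2, 16 and 18 bases before it. Vegfa's window belongs to the second of its listed start sites, inside the gene, since the promoter of the upstream start held no match. Vegfa thus counts among the 9 only through this internal start site. The letters of its window may be part of an exon and not of a promoter, which was not tested. The windows of Car9 and Ankrd37 also lie within the gene coordinates given below, because their RefSeq start sites lie inside those coordinates. Among glycolysis genes with a listed promoter, 17 of 20 held a match.

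The libraries were similar in depth, with 21075641 to 23852764 reads recovered per tumor from the steps of the FPKM values, and the tumors correlated with each other at r between 0.89 and 0.96 over the tested genes. The label of mammary tumor was borne out by 10 epithelial markers, whose summed level was 2437 to 3249 FPKM in the IgG tumors and 3341 to 4216 FPKM in the anti-PD-1 tumors, with no overlap. Fat cell markers summed to only 3.38 to 9.34 FPKM, with 5 of 7 below the filter, and all 7 T cell markers were below it. IgG replicate 2 stood apart, with 959 FPKM over 7 neutrophil markers, nearly all of it Ltf, which is also a milk protein, against 20.5 to 141 FPKM in the other tumors. Muscle markers reached 141 FPKM in IgG replicate 2, 155 in anti-PD-1 replicate 2 and 77.0 in anti-PD-1 replicate 1, against 0.626 to 5.41 in the other 3. Macrophage markers summed to 276 to 744 FPKM in IgG and 515 to 646 FPKM in anti-PD-1 tumors, and fibroblast markers to 87.5 to 246 FPKM and 96.2 to 353 FPKM. Erythroid markers ranged from 41.5 to 835 FPKM and keratinocyte markers from 4.61 to 10.3 FPKM, with overlap between the groups. At an unadjusted p under 0.05, where 12.3% of all genes passed, 1 of 10 macrophage markers was called (Cd68, log2 fold change 0.76, list median 0.31), 1 of 4 tested keratinocyte markers (Dsg3, 1.44, list median -0.23) and 1 of 10 epithelial markers (Krt19, -2.03, list median 0.34). Dsg3 and Krt19 thus went against the median of their lists. The part of these differences in the results was not tested, and in bulk tumors fewer cells of a type cannot be told apart from less RNA per cell.

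Across all 6 tumors, Egln3 was by far the most abundant of the 10 genes, at a mean of 214 FPKM. Ddit4 (41.7), Vegfa (34.8) and Bnip3 (32.1) followed, then Ndrg1 (15.2) and P4ha1 (14.8), Pdk1 (8.86) and Car9 (8.75), and finally Adm (4.79) and Ankrd37 (3.27 FPKM). Every Egln3 value lay above every value of the other 9 genes, while the ranges of all other neighbors in this order overlapped. The depth behind these values ran from 44 reads, for Adm in IgG replicate 2, to 16430 reads, for Egln3 in IgG replicate 1.

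None of the 10 genes was called different between anti-PD-1 and IgG tumors. At an unadjusted p under 0.05 in limma, 0 of 10 were called, where 12.3% of all tested genes were (6.22% higher and 6.05% lower with anti-PD-1), and 0 of 10 had groups that did not overlap, where 18.1% of all genes had. After Benjamini-Hochberg adjustment no gene of the whole table was called in limma (0.0%), although 1848 had an unadjusted p under 0.05 and limma-voom on the recovered reads called 1. Nonetheless 9 of the 10 had a higher mean log2 level with anti-PD-1, as 50.8% of all genes did, and their median log2 fold change was 0.28 against 0.01 for all genes. The IgG group was the more uneven, with its replicate 1 near the top and its replicate 2 at the bottom for most of the genes. The smallest two-sided p that an exact permutation of 3 against 3 tumors can give is 0.1.

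**Figure D1:**
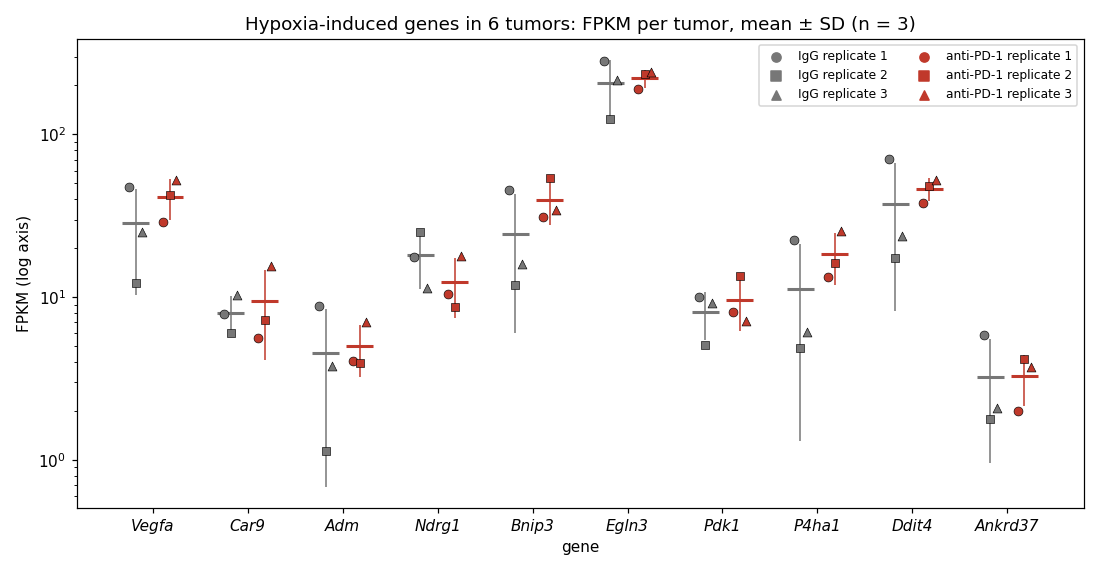
FPKM of each of the 10 genes (x axis) in each tumor on a logarithmic y axis, with grey points for IgG and red points for anti-PD-1, the symbol giving the replicate, and horizontal and vertical lines giving the mean and SD of 3 tumors. The groups overlap for every gene, and IgG replicate 2 (grey square) is the lowest tumor for 8 of them.

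Vegfa (ENSMUSG00000023951, chr17:46016993-46032369 on the minus strand of GRCm38) encodes the main growth factor for blood vessels. Its levels were 47.9, 12.2 and 25.0 FPKM in IgG replicates 1, 2 and 3, and in the anti-PD-1 tumors in the same order 29.1, 42.5 and 52.3 FPKM. Thus 1 IgG tumor matched the treated tumors, and the other two lay below all of them. The means were 28.4 ± 18.05 and 41.3 ± 11.7 FPKM (SD, n = 3 each), and the log2 fold change of 0.69 ± 0.46 (SE) had an adjusted p of 0.570 in limma.

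Adm (ENSMUSG00000030790, chr7:110627661-110629820 on the plus strand of GRCm38) encodes adrenomedullin, a peptide that widens vessels. It read 8.78, 1.13 and 3.80 FPKM in the IgG tumors and 4.03, 3.95 and 7.02 FPKM in the anti-PD-1 tumors. Both extremes were IgG tumors, and the 7.76-fold span between them was the widest of the 10 genes. Between means of 4.57 ± 3.88 and 4.9995 ± 1.75 FPKM (SD, n = 3 each), limma gave a log2 fold change of 0.34 ± 0.52 (SE, adjusted p = 0.821). An antisense gene, Gm28863, overlaps Adm on the other strand but reached at most 0.632 FPKM.

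Egln3 (ENSMUSG00000035105, chr12:54178981-54203860 on the minus strand of GRCm38) encodes an oxygen-sensing prolyl hydroxylase that HIF itself induces. Its levels were 280, 125 and 217 FPKM with IgG and 189, 235 and 241 FPKM with anti-PD-1. The treated tumors lay inside the IgG range, which spanned 2.25-fold, the narrowest span of the 10. Means were 207 ± 78.3 and 222 ± 28.2 FPKM (SD, n = 3 each), a log2 fold change of 0.17 ± 0.31 (SE, adjusted p = 0.850 in limma).

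Car9 (ENSMUSG00000028463, chr4:43506966-43513729 on the plus strand of GRCm38) encodes carbonic anhydrase 9, a surface enzyme that helps tumor cells control pH. It measured 7.83, 6.02 and 10.3 FPKM with IgG and 5.63, 7.21 and 15.5 FPKM with anti-PD-1, where replicate 3 alone lay above the IgG tumors. With means of 8.04 ± 2.14 and 9.46 ± 5.32 FPKM (SD, n = 3 each), the log2 fold change was 0.13 ± 0.36 (SE, adjusted p = 0.905 in limma). The 926 tested genes of chromosome 4, where Car9 lies, were shifted by a median of -0.40 on the log2 scale. IgG replicates 2 and 3 stood apart here, with median deviations of 0.35 and 0.31 for the chromosome. IgG replicate 1, at -0.09, lay nearer the anti-PD-1 tumors, at -0.16 to -0.24. Relative to that chromosome the Car9 difference was 0.52 ± 0.39 (SE, adjusted p = 0.625 in limma). An antisense gene, Gm12454, overlaps it and reached 5.93 FPKM, and since the sources used here do not state whether counting used strand, reads of the pair may be mixed.

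Pdk1 (ENSMUSG00000006494, chr2:71873224-71903858 on the plus strand of GRCm38) encodes a kinase that shuts pyruvate out of the mitochondrial citric acid cycle. The levels were 9.97, 5.09 and 9.23 FPKM with IgG and 8.09, 13.6 and 7.18 FPKM with anti-PD-1. Its extremes were the replicates numbered 2 of the 2 groups, and the other 4 tumors stayed within a narrow band. The group means of 8.10 ± 2.63 and 9.62 ± 3.46 FPKM (SD, n = 3 each) differed by 0.23 ± 0.31 on the log2 scale (SE, adjusted p = 0.793 in limma).

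Bnip3 (ENSMUSG00000078566, chr7:138890836-138909519 on the minus strand of GRCm38) encodes a mitochondrial protein that promotes mitophagy and cell death. The gene stood at 45.7, 11.9 and 15.9 FPKM with IgG and at 31.2, 53.7 and 34.4 FPKM with anti-PD-1. IgG replicate 1 ranked among the treated tumors, and the other IgG tumors lay below them. Means were 24.5 ± 18.5 and 39.8 ± 12.2 FPKM (SD, n = 3 each). The log2 fold change was 0.88 ± 0.47 (SE), and its adjusted p of 0.482 in limma was the lowest of the 10. The opposite strand of its locus holds the processed pseudogene Gm18258, which reached 3.20 FPKM.

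Ddit4 (ENSMUSG00000020108, chr10:59949669-59951834 on the minus strand of GRCm38) encodes REDD1, a stress-induced inhibitor of mTORC1 signaling. Its values were 70.7, 17.4 and 23.7 FPKM with IgG and 38.0, 48.2 and 52.4 FPKM with anti-PD-1. IgG replicate 1 was the highest tumor and the other IgG tumors were the lowest. From 37.3 ± 29.1 to 46.2 ± 7.45 FPKM (SD, n = 3 each), the mean differed by 0.55 ± 0.47 on the log2 scale (SE, adjusted p = 0.650 in limma).

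P4ha1 (ENSMUSG00000019916, chr10:59323296-59373304 on the plus strand of GRCm38) encodes the catalytic subunit of collagen prolyl 4-hydroxylase, needed for stable collagen. It measured 22.6, 4.88 and 6.11 FPKM with IgG and 13.3, 16.2 and 25.5 FPKM with anti-PD-1. As for Vegfa, Bnip3 and Ddit4, IgG replicates 2 and 3 were the lowest tumors. Means were 11.2 ± 9.90 and 18.3 ± 6.39 FPKM (SD, n = 3 each), and the log2 fold change of 0.91 ± 0.52 (SE) was the largest of the 10 genes, at an adjusted p of 0.504 in limma. P4ha1 and Ddit4 both lie on chromosome 10, where the median gene was shifted by 0.05.

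Ankrd37 (ENSMUSG00000050914, chr8:45996902-46005707 on the minus strand of GRCm38), an ankyrin repeat protein gene best known as a HIF target, was the least abundant, with 5.87, 1.79 and 2.08 FPKM in IgG and 2.01, 4.15 and 3.72 FPKM in anti-PD-1 tumors. Anti-PD-1 replicate 1 lay between the 2 low IgG tumors. The means were nearly equal, 3.25 ± 2.28 and 3.29 ± 1.14 FPKM (SD, n = 3 each), and differed by 0.11 ± 0.38 on the log2 scale (SE, adjusted p = 0.929 in limma). On the opposite strand it overlaps the end of Ufsp2, which reached 15.5 FPKM, and part of Lrp2bp, which reached 0.501 FPKM, and whether their reads were mixed was not tested.

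Ndrg1 (ENSMUSG00000005125, chr15:66929318-66969640 on the minus strand of GRCm38), a stress-responsive gene linked to differentiation, had the opposite layout. Its levels were 17.6, 25.2 and 11.4 FPKM with IgG and 10.45, 8.70 and 17.999 FPKM with anti-PD-1. Its highest tumor was IgG replicate 2, the tumor in which all the other 9 genes came lowest or next to lowest. Means were 18.1 ± 6.92 and 12.4 ± 4.94 FPKM (SD, n = 3 each). A log2 fold change of -0.50 ± 0.34 (SE) had an adjusted p of 0.580 in limma, and the median shift of genes on its chromosome, 15, was 0.17.

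**Figure D2:**
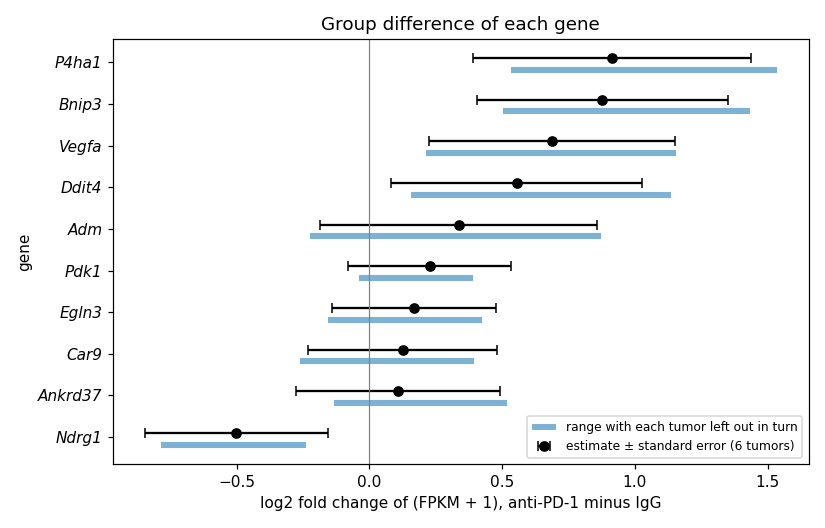
Log2 fold change of FPKM + 1 (x axis, anti-PD-1 minus IgG) for each gene (y axis); black points and bars give the limma estimate and its standard error over 6 tumors, and blue bars the range of estimates with each tumor left out in turn. P4ha1, Bnip3, Vegfa and Ddit4 stay above 0 and Ndrg1 below 0 whichever tumor is left out, while the blue bars of the other 5 cross 0.

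The group comparison turned on the 2 IgG tumors at the extremes. Without IgG replicate 1, 4 of the 10 genes passed an unadjusted p under 0.05, where the share of all genes rose as well, to 17.8%. They were P4ha1 (log2 fold change 1.54), Bnip3 (1.43), Vegfa (1.15) and Ddit4 (1.14), with adjusted p-values of 0.103, 0.106, 0.186 and 0.106 in limma. The median of the 10 genes was then 0.70 against 0.02 for all genes. Without IgG replicate 2, by contrast, none passed, where 6.38% of all genes did, only 4 of 10 had a positive log2 fold change and the median was -0.04.

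The genes varied together from tumor to tumor. Taking each gene's deviation from its own mean over 6 tumors on the log2 scale, the median deviation of the 10 genes was 0.63, -0.90 and -0.31 in IgG replicates 1, 2 and 3 and -0.08, 0.34 and 0.39 in anti-PD-1 replicates 1, 2 and 3. The same median over all tested genes stayed between -0.02 and 0.00 in every tumor. The scaling of the tumors to each other holds that median near 0, so it does not show how far other sets of 10 genes vary. IgG replicate 2 was among the 2 lowest tumors for 9 of 10 genes, IgG replicate 1 among the 2 highest for 8 and anti-PD-1 replicate 3 among the 2 highest for 7. Over the 45 pairs of genes the median r was 0.74, and 0.72 with the group means taken out. Pairs of other genes were not computed for comparison.

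Ndrg1 was the exception, with a negative r to 8 of the other 9 genes, down to -0.80 with Pdk1. The 36 pairs without Ndrg1 were all positive, from 0.01 for Car9 with Pdk1 to 0.96 for Ddit4 with P4ha1, with a median of 0.79. Vegfa, Adm, Egln3, Ddit4, P4ha1, Bnip3 and Ankrd37 formed the tightest block, and Car9 and Pdk1 were looser. The 6 tumors are the only points behind each r, and all pairs share them.

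**Figure D3:**
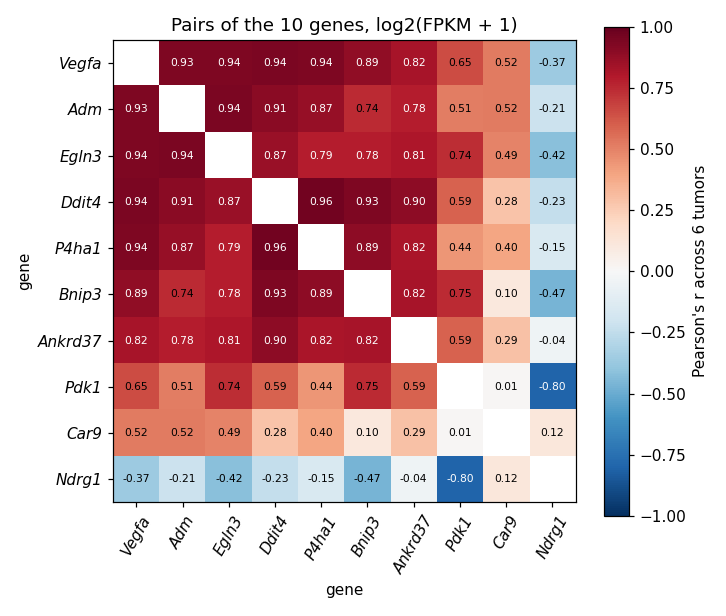
Heat map of Pearson's r between each pair of the 10 genes (both axes) over 6 tumors on log2(FPKM + 1), with the color scale running from -1 to 1 and r printed in each cell. Of the 36 pairs without Ndrg1 all are positive, and 8 of the 9 pairs with Ndrg1 are negative.

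Gapdh, the reference glycolysis gene, spanned 7.35-fold between the tumors, more than any of the 10 genes except Adm. It measured 796, 168 and 293 FPKM with IgG and 872, 1200 and 1236 FPKM with anti-PD-1. All treated tumors lay above all IgG tumors, and IgG replicates 2 and 3 lay far below the other 4. Its log2 fold change was 1.68 ± 0.53 (SE, adjusted p = 0.355 in limma), past the unadjusted threshold. Of the 19 other tested glycolysis genes, 17 had a positive r with Gapdh and 11 passed an exact p under 0.05, with a median r of 0.82, from -0.19 for Eno1 to 0.95 for Gpi1. Eno1, an enolase gene, lies on chromosome 4 like Car9.

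Of the 10 genes, 9 had a positive r with Gapdh and 4 followed it at an exact permutation p under 0.05 over all 720 orders of the tumors, where 7.57% of all other tested genes did. These were Bnip3 (r = 0.93, p = 0.0125), P4ha1 (0.92, p = 0.0167), Vegfa (0.91, p = 0.0125) and Ddit4 (0.89, p = 0.0250), in two-sided exact tests. With Benjamini-Hochberg adjustment over all genes, none of them passed, at adjusted p-values of 0.195, 0.214, 0.195 and 0.241, and no gene of the table did. Since the 4 genes also moved with one another, they are not separate pieces of evidence. Spearman's rho with Gapdh was 0.71, 0.83, 0.83 and 0.66 for the 4 genes in that order, and 0 of 10 passed by rank, where 5.12% of all genes did.

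Adm (r = 0.76), Egln3 (0.75), Ankrd37 (0.66) and Pdk1 (0.61) had positive values that missed the threshold, with exact permutation p-values of 0.0972, 0.0542, 0.194 and 0.235. Car9 stood at 0.29 (exact p = 0.601) and Ndrg1 at -0.48 (exact p = 0.356). Among these 6 the rank correlations ran from -0.37 for Ndrg1 to 0.60 for Adm. With group means taken out, r with Gapdh was 0.93 to 0.99 for Ddit4, Vegfa, P4ha1, Adm, Bnip3, Egln3 and Ankrd37, 0.63 for Pdk1, 0.30 for Car9 and -0.16 for Ndrg1. Of these, Ddit4, Vegfa and P4ha1 passed, 3 of 10 against 1.31% of all genes, each at an exact p of 0.0278, where 0.0278 is the smallest that the 36 orders within groups can give. Gapdh spanned 7.40 to 9.64 on the log2 scale in the IgG tumors and only 9.78 to 10.27 in the anti-PD-1 tumors. These within-group values therefore rest mostly on the 3 IgG tumors.

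**Figure D4:**
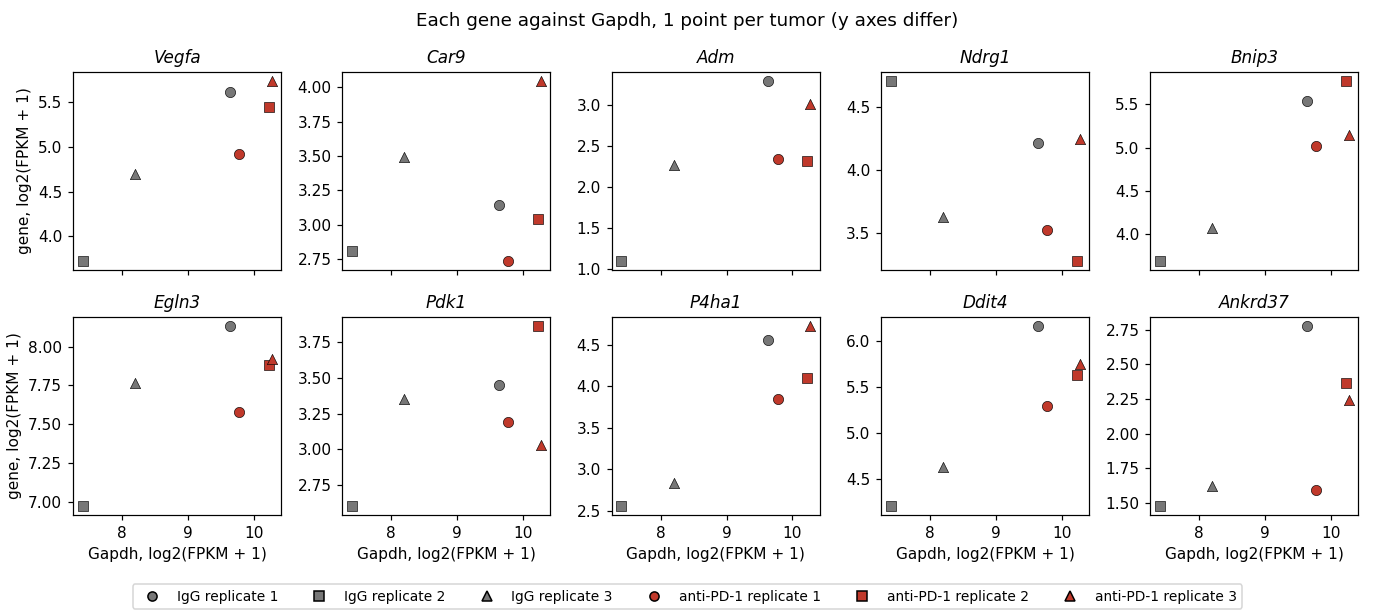
Log2(FPKM + 1) of each gene (y axes, scales differ) against that of Gapdh (x axis), 1 panel per gene and 1 point per tumor, with grey for IgG and red for anti-PD-1 and symbols for the replicates. IgG replicates 2 and 3 sit alone at low Gapdh, at 7.40 and 8.20, and the other 4 tumors lie between 9.64 and 10.27 with no common slope.

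For the 4 genes that had followed Gapdh, the relation rested on IgG replicates 2 and 3 as a pair. IgG replicates 2 and 3 were the tumors farthest from the median of Gapdh, and without them r ran from -0.29 for Adm to 0.60 for Car9, with a median of 0.02 and 5 of 10 values positive. The 4 genes that had followed Gapdh then stood at 0.14 (Bnip3), 0.21 (P4ha1), 0.39 (Vegfa) and -0.24 (Ddit4). For these 4 genes, leaving out a single tumor kept r high. It was 0.86 to 0.93 without IgG replicate 3 and 0.75 to 0.87 without IgG replicate 2. Over these 5 tumors 0 of 10 genes passed either time, where 5.56% and 4.28% of all genes did. The other genes depended more on IgG replicate 2. Without it r was 0.51 for Ankrd37, 0.34 for Adm, 0.21 for Egln3, 0.08 for Pdk1, -0.02 for Car9 and 0.13 for Ndrg1. Without IgG replicate 3 it was 0.60, 0.81, 0.87, 0.74, 0.48 and -0.70 in that order. Without anti-PD-1 replicate 3, 2 passed, against 5.09% of all genes. Over the 4 tumors with high Gapdh, which include all the treated tumors and IgG replicate 1, no common change with Gapdh was detectable, and within them Gapdh spanned only 9.64 to 10.27 on the log2 scale.

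Against the mean log2 level of the 19 other glycolysis genes, 9 of the 10 again had a positive r, and Vegfa (r = 0.93, exact p = 0.00278), P4ha1 (0.88, exact p = 0.00278) and Ddit4 (0.80, exact p = 0.0444) passed, where 5.22% of all genes did. Their adjusted p-values were 0.215, 0.215 and 0.390. By rank, Vegfa and P4ha1 passed with a rho of 0.94 each (exact p = 0.0167), 2 of 10 against 4.57% of all genes. Adm had an r of 0.85, Egln3 0.80, Bnip3 0.73, Car9 0.68, Ankrd37 0.59, Pdk1 0.43 and Ndrg1 -0.32, with exact p-values from 0.0639 to 0.538. With both references, 20 such relations were computed for the 10 genes, and 310 when the rank, scaling and left-out-tumor settings are counted, each setting adjusted over the whole table on its own.

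The tumors farthest from the median were here IgG replicate 2 and anti-PD-1 replicate 3. Without this pair of tumors r was 0.98 for Bnip3, 0.95 for P4ha1, 0.89 for Ddit4 and 0.85 for Vegfa, and 9 of 10 values were positive with a median of 0.59, over only 4 tumors. Car9 was the exception and turned from 0.68 to -0.69. With the median shift of each chromosome taken out of every gene, Car9 reached 0.91 over all 6 tumors (exact p = 0.0347, adjusted p = 0.418). Without IgG replicate 2 alone, 0 of 10 genes passed, where 2.42% of all genes did, and r was 0.78 for Vegfa, 0.79 for P4ha1 and 0.54 for Ddit4. It was then 0.65 for Car9, 0.58 for Ndrg1, 0.54 for Adm, 0.38 for Bnip3, 0.37 for Ankrd37, 0.30 for Egln3 and -0.43 for Pdk1. Without anti-PD-1 replicate 3, 5 passed, against 3.73% of all genes. With group means taken out, only Egln3 passed (r = 0.88, exact p = 0.0278), 1 of 10 against 1.17% of all genes.

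**Figure D5:**
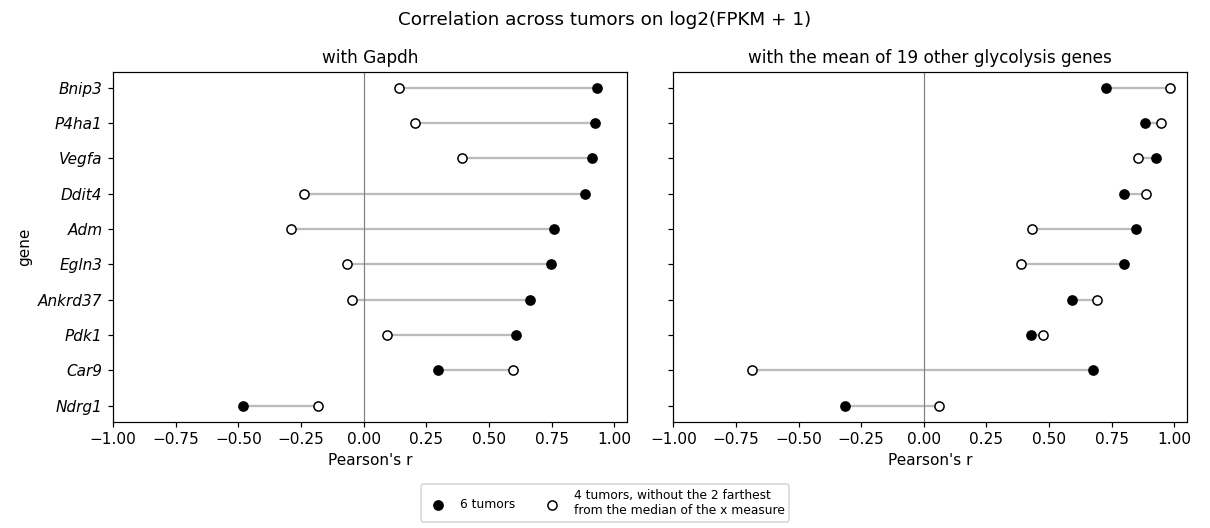
Pearson's r (x axes) of each gene (y axis) with Gapdh, left, and with the mean of 19 other glycolysis genes, right, over all 6 tumors (filled points) and over 4 tumors without the 2 farthest from the median of the x measure (open points). With Gapdh the open points scatter between -0.29 and 0.60, and with the other glycolysis genes 9 of 10 are positive, Ndrg1 turning to 0.0595 and Car9 to -0.69.

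None of the genes that sense oxygen and relay it was called. Of 16 listed HIF pathway components 15 were tested, 0 were called at an unadjusted p under 0.05 (12.3% of all genes were), 8 had a higher mean with anti-PD-1, and the median log2 fold change was 0.19. They ran from Cited2, a competitor of HIF for its coactivators and itself induced by HIF (0.70 ± 0.39 SE), to Epas1, which encodes the HIF2 alpha subunit (-0.26 ± 0.15 SE). Cited2 measured 179, 61.3 and 88.8 FPKM with IgG and 126, 169 and 200 FPKM with anti-PD-1, with the same tumors low as for Vegfa.

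Of 33 further hypoxia-induced genes, all tested, 2 were higher and 4 lower at an unadjusted p under 0.05, against 6.22% and 6.05% of all genes, and the median log2 fold change was 0.09. The 3 with the smallest p were Bhlhe40, a circadian and stress repressor (0.80 ± 0.22 SE), Higd1a, a mitochondrial survival factor (0.61 ± 0.22 SE), and Car12, a carbonic anhydrase like Car9 (-1.40 ± 0.52 SE), all at adjusted p-values of 0.344 to 0.374 in limma. Car12 measured 17.4, 35.8 and 88.5 FPKM with IgG and 14.6, 11.8 and 15.5 FPKM with anti-PD-1, so every treated tumor lay below every IgG tumor. Car12 and Higd1a lie on chromosome 9, where the median gene was shifted by -0.36. There too IgG replicates 2 and 3 stood apart, with median deviations of 0.31 and 0.32. IgG replicate 1 was at -0.13 and the anti-PD-1 tumors were at -0.05 to -0.27. Car12 had the lowest log2 fold change of the list and Ero1l, an oxidase of protein folding, the highest (1.13 ± 0.50 SE, adjusted p = 0.422).

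Of 21 family relatives of the 10 genes 17 were tested, and 2 were higher and 0 lower at an unadjusted p under 0.05, against 6.22% and 6.05% of all genes. Ndrg4, a relative of Ndrg1, had the highest log2 fold change, 3.59 ± 0.69 (SE, adjusted p = 0.344 in limma). It rested on 7.76, 2.06 and 1.55 FPKM with IgG against 108, 18.9 and 54.1 FPKM with anti-PD-1, groups that did not overlap. Ddit4l, the paralog of Ddit4, had a log2 fold change of 0.89 ± 0.35 (SE, adjusted p = 0.385), and Ndrg2 the lowest, -0.77 ± 0.40 (SE). The median of the relatives was 0.27.

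Of 14 receptors and partners of the encoded proteins, all tested, 12 had a lower mean with anti-PD-1, the median log2 fold change was -0.15, and 1 was called, where 12.3% of all genes were. This was Ramp1, a chaperone of the receptor family that binds adrenomedullin-related peptides, at 17.6, 22.6 and 11.4 FPKM with IgG and 4.12, 8.39 and 8.54 FPKM with anti-PD-1 (log2 fold change -1.19 ± 0.33 SE, adjusted p = 0.344 in limma). The highest of the list was P4hb, the partner subunit of P4ha1 (0.24 ± 0.18 SE). The endothelial markers, which bear on the Vegfa receptors in this list, summed to 33.2 to 47.8 FPKM with IgG and 23.97 to 53.8 FPKM with anti-PD-1, and their part was not tested. For comparison, 5 of 20 tested glycolysis genes were higher and 0 lower, against 6.22% and 6.05% of all genes, with a median of 0.58, the 5 being Gapdh, Gpi1 (1.11), Aldoa (0.94), Hk2 (0.83) and Pfkl (0.71), and Eno1 (-0.25) having the lowest log2 fold change. Flt1, Bnip3l, P4ha2, Egln1 and Egln2 stand in more than 1 of these lists, and no test was made of any list as a whole.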

How the data were processed

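Total RNA of 6 tumors was sequenced in paired-end libraries. The authors trimmed reads with cutadapt 3.5, aligned them to mm10 (Ensembl release 99) with Bowtie2 2.4.1 and RSEM 1.3.1, and deposited FPKM per gene and tumor, the unit used here. Of 54532 IDs, 54495 matched GENCODE M21. FPKM values were divided by median-of-ratios factors (0.996 to 1.00) and tested as log2(FPKM + 1) with limma 3.58.1 (R 4.3.3), two-sided, because the study's test needs counts. On this scale the change of low genes is understated. On simulated data of 14386 genes, with a single spread for all genes, 96.5% of 200 genes changed by 2 on the log2 scale were recovered. The largest log2 fold change of the 10 genes was 0.91. The simulation thus does not tell how often changes of their size would be found. Whole reads (tolerance 0.1) fitted 97.0% to 97.3% of detected values and were used for limma-voom, which called 1 gene after adjustment. Correlations used exact permutations. The genes and lists were chosen with earlier results of these data known. All 10 genes were named, and of each other list, cell type markers aside, every gene past an unadjusted p of 0.05 (if more than 5, the 3 with the smallest p) and the highest and lowest fold change. Of 2 Aldoa IDs the more abundant was used.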

Additional observations from a re-analysis of the deposited data

How the results depend on the processing

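No gene among the 10 was called under another pseudocount, scaling, filter, moderation, voom or the chromosome correction, but leaving out single tumors gave 0 to 4 called genes, 4 without IgG replicate 1, where calls among all genes also rose, from 12.3% to 17.8%. The other lists, cell type markers not counted, had 14 called genes in the main comparison, and 5 to 31 with single tumors left out (31 without IgG replicate 1, 6 without IgG replicate 2, 5 without anti-PD-1 replicate 2 or 3). These lists held 20, 15, 33, 17 and 14 tested genes, some of them in more than 1 list. Calls among all 15069 genes moved too, from 1848 to 2679 without IgG replicate 1 and 962 without IgG replicate 2. They were 1399 and 1158 without anti-PD-1 replicates 2 and 3. The median log2 fold change of the 10 genes ran from -0.04 (without IgG replicate 2) to 0.70. The number that followed Gapdh was 4, against 0 by rank. It ran from 0 (without IgG replicate 2 or 3) to 5 (without IgG replicate 1), with 2 without anti-PD-1 replicate 3. Without IgG replicate 1, 710 of all 15068 genes followed Gapdh, against 1140 over 6 tumors. For the 4 genes r stayed at 0.86 to 0.93 without IgG replicate 3 and 0.75 to 0.87 without IgG replicate 2. The number that followed the other glycolysis genes was 3, against 1 with group means taken out, where the share of all genes fell from 5.22% to 1.17%, and ran from 0 (without IgG replicate 2) to 5 (without anti-PD-1 replicate 3). With single tumors left out, log2 fold changes changed sign for Car9 (-0.26 to 0.40), Adm (-0.22 to 0.87), Egln3 (-0.16 to 0.42), Pdk1 (-0.0390 to 0.39) and Ankrd37 (-0.13 to 0.52), r with Gapdh for Car9 (-0.12 to 0.48) and Ndrg1 (-0.70 to 0.13), and r with the other glycolysis genes for Ndrg1 (-0.76 to 0.58) and Pdk1 (-0.43 to 0.88). Without the 2 farthest tumors, r with Gapdh changed sign for Adm (-0.29), Egln3 (-0.0647), Ddit4 (-0.24) and Ankrd37 (-0.0466), and r with the other glycolysis genes for Car9 (-0.69) and Ndrg1 (0.0595), the latter also with group means taken out (0.0195). The causes were not tested.

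The replicate numbers were not shown to pair tumors, since deviations of same-numbered tumors correlated at -0.16, 0.01 and 0.19. A fit with the replicate block called 0 of the 10 genes and 19 in the other lists, where 11.4% of all genes were called. The lowest depths were 44 reads for Adm and 66 for Ankrd37 in a tumor, and 6 tumors limit every correlation.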
